A study of Mus musculus with 8 samples.

Results

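The inflammatory CC chemokines bound by the atypical receptor ACKR2 (also called D6) were described here over 8 expression arrays of mouse gut. They are Ccl2, Ccl3, Ccl4, Ccl5, Ccl7, Ccl8, Ccl11, Ccl12, Ccl17 and Ccl22, that is 10 of the 18193 genes on the array that had a probe set of their own. Every probe set that the platform annotation assigned to exactly 1 of these genes was taken, and each gene had 1, which makes 10 of 45101 probe sets. The list is a functional one, drawn from what ACKR2 is known to bind, but it was chosen with earlier results of these data known.

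The study compared intestinal tumours with tumour-free intestine in mice with and without ACKR2. All mice were on the C57BL/6 strain and were 110 days old. The 8 groups were ACKR2-/-ApcMin/+ colon tumours, ApcMin/+ colon tumours, ACKR2-/- colon, wild-type (WT) colon, ACKR2-/-ApcMin/+ small-intestinal tumours, ApcMin/+ small-intestinal tumours, ACKR2-/- small intestine and WT small intestine. ApcMin/+ mice carry a mutated copy of the tumour suppressor Apc in every cell and form intestinal tumours spontaneously. The tumour-free tissue came from mice without the ApcMin allele, so tumour tissue and Apc genotype cannot be told apart. Each group was 1 array of RNA pooled within its genotype, with the number of animals per pool not given, so no group had replicates, and all values have the precision that 8 arrays allow.

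Chemokines are small secreted proteins that guide leukocytes through G protein-coupled receptors. Inflammatory CC chemokines are made by macrophages, epithelium, fibroblasts and lymphocytes in response to signals such as TNF and IL-1, and they draw in monocytes, eosinophils, T cells and dendritic cells. ACKR2 binds many of them without signalling through G proteins, takes them into the cell and degrades them, so it acts on the protein after secretion. The arrays measured messenger RNA, and chemokine protein was not measured.

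The start regions of 3 members are shown because, of the members whose start region was matched, these are described in most detail below. Ccl3 signal was above the detection floor in colon tumours alone, Ccl8 was lower in small-intestinal tumours, and Ccl17 was higher in colon tumours and higher in each array without ACKR2 than in its counterpart. Each run covers 250 bases before to 50 bases after the gene start, read 5′ to 3′ on the gene's strand, from RefSeq on build GRCm38.p6. The positions are chr11:83649329-83649628 on the minus strand for Ccl3, chr11:82114935-82115234 on the plus strand for Ccl8 and chr8:94810203-94810502 on the plus strand for Ccl17. Capitals mark a TATAAA in Ccl8 and, in Ccl17, a TTC and a GAA separated by any 4 bases (the 10 bases are capitalised whole). The latter is a form of the palindromic core bound by STAT proteins, and other spacings of it were not searched. No searched motif was found in the Ccl3 window.
Ccl3: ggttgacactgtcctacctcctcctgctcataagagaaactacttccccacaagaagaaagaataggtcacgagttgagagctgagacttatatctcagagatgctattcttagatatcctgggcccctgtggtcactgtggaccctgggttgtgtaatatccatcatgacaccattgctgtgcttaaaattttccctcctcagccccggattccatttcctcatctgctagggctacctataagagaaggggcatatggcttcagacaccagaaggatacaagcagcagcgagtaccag
Ccl8: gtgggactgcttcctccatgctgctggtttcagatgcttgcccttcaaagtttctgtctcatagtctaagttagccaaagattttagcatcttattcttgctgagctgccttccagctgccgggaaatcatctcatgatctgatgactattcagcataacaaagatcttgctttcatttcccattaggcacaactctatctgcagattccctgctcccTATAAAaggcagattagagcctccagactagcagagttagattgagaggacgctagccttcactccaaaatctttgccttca
Ccl17: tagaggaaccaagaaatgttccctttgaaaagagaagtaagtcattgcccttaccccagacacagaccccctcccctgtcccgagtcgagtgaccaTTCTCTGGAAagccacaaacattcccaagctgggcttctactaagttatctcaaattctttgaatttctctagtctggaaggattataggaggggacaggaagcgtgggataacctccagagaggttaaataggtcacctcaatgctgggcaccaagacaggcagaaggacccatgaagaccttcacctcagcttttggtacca

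Start regions of 5 of the 10 members were matched, those of Ccl3, Ccl8, Ccl12, Ccl17 and Ccl22, and both strands were searched. TATAAA began 32 bases before the start of Ccl8 and 31 before that of Ccl12, and it occurred in 13.6% of 32851 windows of this length. The spaced TTC and GAA began 154 bases before the Ccl17 start, reads the same pattern on both strands, and occurred in 6.95% of all windows. The NF-kappa-B motif, named after a transcription factor activated by TNF and IL-1, was found in 0 of the 5 windows and in 8.46% of all. These are matches of letters in a short window and show no binding.

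Signals are MAS5 intensities on a linear scale. Values under a floor of 64.1 were set to the floor before log2 was taken, so any difference with 1 side at the floor is the least it can be. Of 14023 genes tested, the 10 members all passed the filter of 2 arrays above the floor, but Ccl3 and Ccl7 did so through the 2 colon tumour arrays and therefore had to differ. The fit is 1 limma model over all arrays in which the effect of ACKR2 loss is shared by both tissues. Its standard errors and adjusted p-values rest on how far that effect differed between colon and small intestine in these pools. For each gene, limma draws this spread towards that of all tested genes, so they do not measure the gene's own difference alone. They carry nothing about variation between animals.

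Several features of the pools moved with the groups and touch every comparison. The female transcript Xist had signals of 77.9 and 127 in the ACKR2-/-ApcMin/+ tumours (a single probe set), 2818 to 4827 in the ApcMin/+ tumours and ACKR2-/- tissues, and 7807 and 9809 in WT tissue. The Y-linked Eif2s3y was under 3 in both WT arrays, at 2.66 and 2.92, and at 888 to 1501 elsewhere, so the sex makeup of the pools cannot be told apart from genotype. Median signals were 85.5 to 103 on the arrays without ACKR2 and 115 to 133 on the others, and the ratio of 3′ to 5′ Actb control signal was 1.28 to 1.39 against 1.13 to 1.17. The 3 probe sets of Ackr2 itself ran from 71.3 to 153, 22.2 to 98.6 and 1.10 to 10.5 with no separation by genotype, and whether they lie in the deleted part is not known here. Ccl25, a chemokine of small-intestinal epithelium, was at 7020 to 16189 on the small-intestinal arrays and at 71.9 to 158 on the colon arrays, as the tissue labels say.

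**Figure D1:**
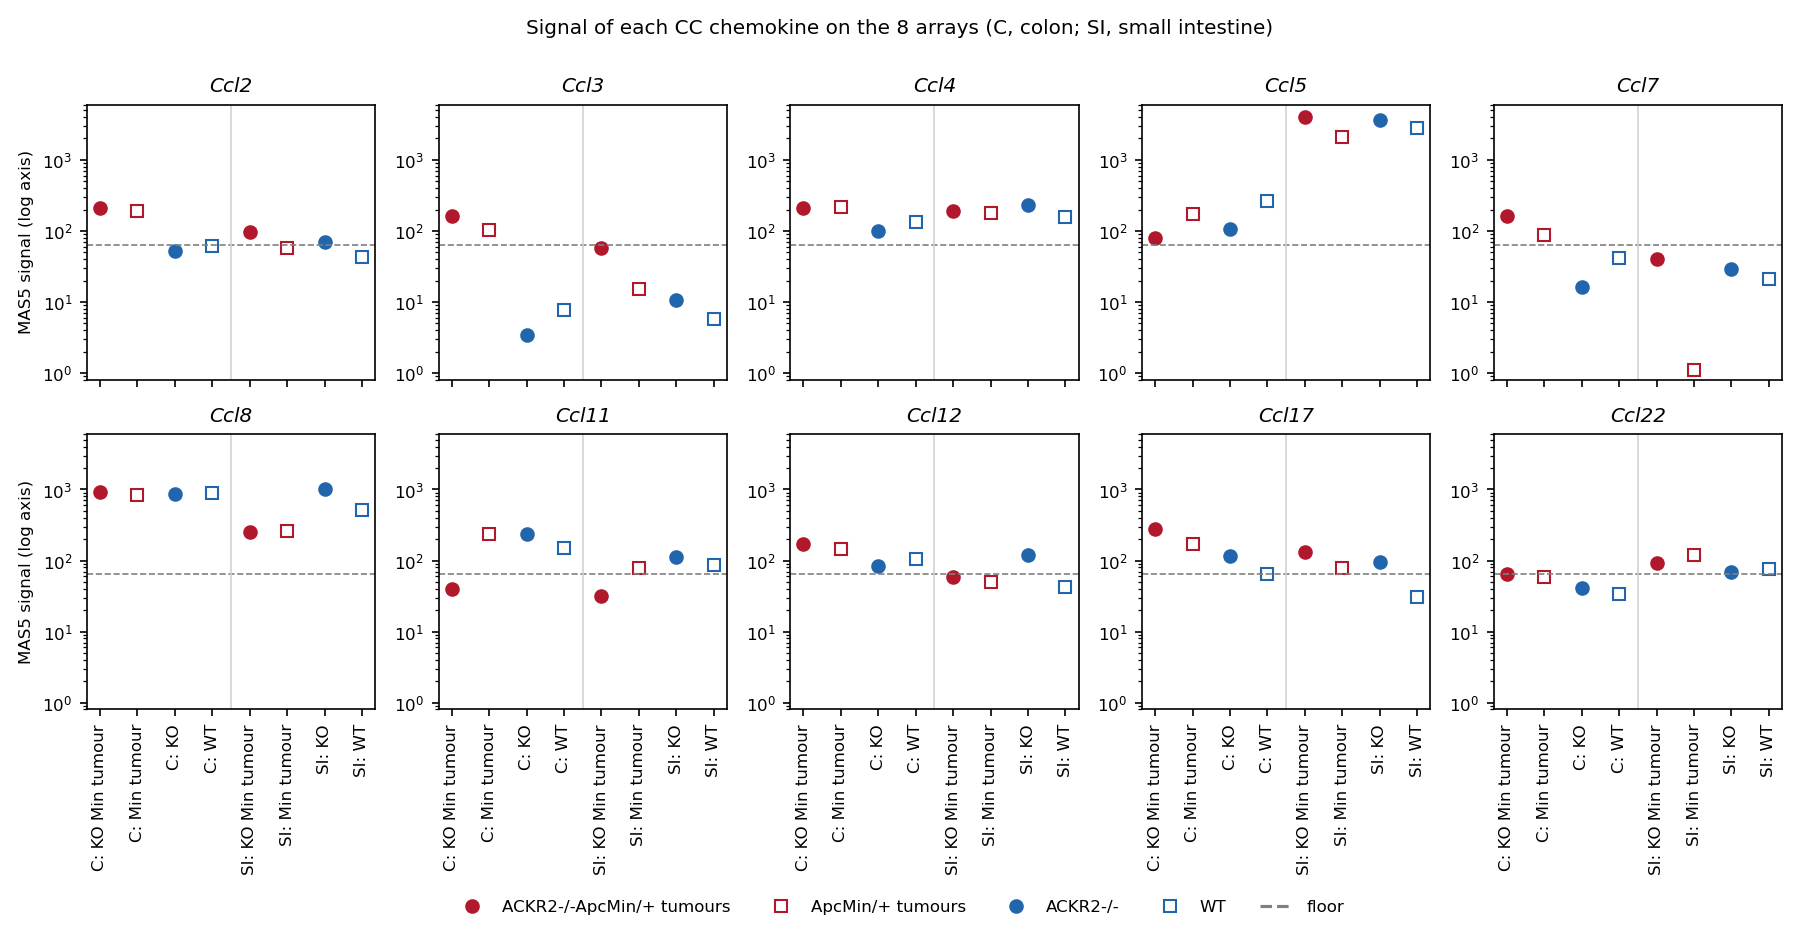
Signal of each of the 10 chemokines on each of the 8 arrays, with MAS5 signal on a log axis, colon left and small intestine right of the grey line in each panel, and the floor of 64.1 dashed. Ccl2, Ccl3, Ccl7, Ccl12 and Ccl17 had their 2 highest signals on the colon tumour arrays, while Ccl5 was at 2119 or more on every small-intestinal array and at 261 or less on every colon array.

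Colon tumours were set against tumour-free colon to ask which of these chemokines accompany tumour tissue there. Of 10 members, 4 rose (Ccl2, Ccl17, Ccl3 and Ccl7) and 0 fell, where 11% of all tested genes rose and 12.6% fell. The median difference of the members was 0.82 on the log2 scale and that of all tested genes 0. The count includes Ccl3 and Ccl7, which entered the test through the tumour arrays.

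Ccl2 (MCP-1) is the main ligand of CCR2 and brings monocytes out of bone marrow and into tissue. Its signal was 213 in ACKR2-/-ApcMin/+ and 189 in ApcMin/+ colon tumours, against 51.9 in ACKR2-/- and 62.3 in WT colon. Both tumour arrays were well above both tumour-free arrays, which lay under the floor, so the differences were at least 3.33-fold and 2.94-fold. The fitted difference was 1.65 ± 0.20 on the log2 scale (SE, adjusted p = 0.00518).

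Ccl7 (MCP-3) binds CCR1, CCR2 and CCR3. Its signal was 162 in ACKR2-/-ApcMin/+ and 87.5 in ApcMin/+ colon tumours, against 16.5 in ACKR2-/- and 41.6 in WT colon. These 2 tumour arrays were the only ones of the 8 with Ccl7 above the floor, so it entered the test through them and had to be higher there. The differences were at least 2.53-fold and 1.36-fold, and the fitted one was 0.89 ± 0.24 (adjusted p = 0.0455). The call ended, leaving 3 members called in colon tumours, with quantile normalization (adjusted p = 0.0649), median centring (0.0642), the mean of probe sets (0.0552) or no variance trend (0.0623), and it held in 2 of 13 alternatives. The colon tumour calls of Ccl2, Ccl17 and Ccl3 held in 8 of 15, 6 of 15 and 8 of 13 alternatives.

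Ccl12 (MCP-5), a CCR2 ligand of the mouse, had 171 in ACKR2-/-ApcMin/+ and 143 in ApcMin/+ colon tumours, against 82.3 in ACKR2-/- and 104 in WT colon. The tumour arrays were the higher ones in both pairs, without overlap. The fitted difference of 0.76 ± 0.31 did not pass the test (adjusted p = 0.136).

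Ccl3 (MIP-1α), a ligand of CCR1 made by activated macrophages and neutrophils, had 163 in ACKR2-/-ApcMin/+ and 104 in ApcMin/+ colon tumours, against 3.43 in ACKR2-/- and 7.65 in WT colon. Tumour-free colon was far below the floor, so the differences of 2.54-fold and 1.61-fold are the least they can be. The fitted difference was 1.02 ± 0.21 (adjusted p = 0.0218), for a gene that entered the test through the colon tumour arrays and had to be higher there.

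Ccl4 (MIP-1β), a chemoattractant of T cells and macrophages, had 212 in ACKR2-/-ApcMin/+ and 221 in ApcMin/+ colon tumours, against 99.7 in ACKR2-/- and 133 in WT colon. All 4 arrays were above the floor and the tumours were the higher pair, by 2.13-fold and 1.66-fold. The fitted difference, 0.91 ± 0.31, did not pass (adjusted p = 0.0836).

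Ccl17 (TARC), made mainly by dendritic cells and epithelium, attracts CCR4-bearing T cells. It had 278 in ACKR2-/-ApcMin/+ and 171 in ApcMin/+ colon tumours, against 114 in ACKR2-/- and 63.8 in WT colon. Both tumour arrays were above both tumour-free arrays, with differences of 2.43-fold and at least 2.67-fold and a fitted difference of 1.35 ± 0.21 (adjusted p = 0.00896). Ccl22 (MDC), the other CCR4 ligand, had 65.5 in ACKR2-/-ApcMin/+ and 59.2 in ApcMin/+ colon tumours, against 41.7 in ACKR2-/- and 33.6 in WT colon. It was above the floor on 1 of these 4 arrays, by a little, so no level can be compared.

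Ccl8, Ccl11 and Ccl5 were not called in colon tumours. Ccl8, which in the mouse acts through CCR8, was nearly level at 911 in ACKR2-/-ApcMin/+ and 845 in ApcMin/+ colon tumours, against 851 in ACKR2-/- and 883 in WT colon. Its fitted difference was 0.02 ± 0.28, with a 95% interval of -0.67 to 0.71. Ccl11 (eotaxin), the CCR3 ligand that attracts eosinophils, had 39.7 in ACKR2-/-ApcMin/+ and 236 in ApcMin/+ colon tumours, against 239 in ACKR2-/- and 148 in WT colon. It was at least 3.72-fold lower in the pair without ACKR2 and 1.6-fold higher in the pair with it, so the pairs went opposite ways (fitted difference -0.61 ± 0.38, adjusted p = 0.3). Ccl5, whose signals are given with the ACKR2 comparison, was lower in tumours in both pairs with overlapping groups (-0.49 ± 0.57, adjusted p = 0.579).

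By size alone, 2 members (Ccl2 and Ccl17) were at least 2-fold higher in both colon pairs and 0 were lower, where 4.86% of tested genes were higher and 6.18% lower. In the pair without ACKR2, 6 members were at least 2-fold higher and 1 lower, against 9.81% and 11.7% of tested genes. The 6 include Ccl3 and Ccl7, which entered the test through the colon tumour arrays and had to be higher there. In the pair with ACKR2, 2 were higher and 0 lower, against 6.74% and 8.91%. Without the WT colon array the count is therefore 6 higher and 1 lower (Ccl11), and without the ApcMin/+ colon tumour array it is 4 higher and 1 lower, since Ccl3 and Ccl7 then leave the test. Without any of the 4 colon arrays or either tumour-free small-intestinal array, limma called 0 of all tested genes. Without either small-intestinal tumour array it called 986 and 1046 genes, among them Ccl2 and Ccl3 each time.

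Some other genes of the pathway moved in colon tumours too. Of the listed inducers and NF-kappa-B genes, 12 of 18 were tested, 4 rose and 1 fell, where 11% of all tested genes rose and 12.6% fell. The median difference of those tested was 0.26. Il1b, which encodes the cytokine IL-1β, had signals of 1493 in ACKR2-/-ApcMin/+ and 1254 in ApcMin/+ colon tumours, against 103 in ACKR2-/- and 193 in WT colon, a fitted difference of 3.28 ± 0.33 (adjusted p = 0.00327). Tnf, above the floor on 3 arrays, all of tumours, entered the test through them and differed by 1.68 ± 0.22 (adjusted p = 0.00607). The adhesion molecule Icam1 differed by 2.55 ± 0.31 (adjusted p = 0.00492) and Nfkbiz by 0.79 ± 0.20 (adjusted p = 0.0364). Relb, a subunit of NF-kappa-B, fell by 0.81 ± 0.19 (adjusted p = 0.0294).

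Of the 5 receptors of the members analysed here, 2 passed the filter, since Ccr3, Ccr4 and Ccr8 were under the floor on all 8 arrays. Ccr1, the receptor of Ccl3, Ccl5 and Ccl7 on myeloid cells, had 392 in ACKR2-/-ApcMin/+ and 527 in ApcMin/+ colon tumours, against 173 in ACKR2-/- and 219 in WT colon (1.22 ± 0.25, adjusted p = 0.0196). Ccr2 did not pass in colon tumours (-0.29 ± 0.32, adjusted p = 0.554). Among other CC chemokines, 7 of 10 were tested, Ccl9 rose by 1.75 ± 0.19 (adjusted p = 0.00412) and Ccl28, a chemokine of mucosal epithelium, fell by 1.81 ± 0.30 (adjusted p = 0.0111).

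Several cell type markers moved with the colon tumours, where limma called 11% of all tested genes higher and 12.6% lower. The summed signal of 5 neutrophil markers was 11711 in ACKR2-/-ApcMin/+ and 13205 in ApcMin/+ colon tumours, against 479 in ACKR2-/- and 1018 in WT colon, with 3 of the 4 tested higher and Cxcr2 under the floor throughout. The sum of 11 monocyte and macrophage markers was 26303 and 21807 in the tumours, against 14713 and 12008, with 2 higher (Lyz2 and Cd14) and 1 lower (Cd163). Lyz2 made up much of this sum, at 13136 and 10414 in the tumours, against 3920 and 4100. C1qa was higher in both pairs, at 2078 and 1739 against 1662 and 1291. Csf1r overlapped, at 1894 and 2201 against 2173 and 1932. Mrc1 was lower in both pairs, at 608 and 711 against 1285 and 727. All 8 smooth muscle markers were lower, at sums of 6683 and 25464 in the tumours against 86123 and 100170. In bulk tissue, more cells of a type and more RNA per cell cannot be told apart, and the part of these markers in the chemokine values was not tested.

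**Figure D2:**
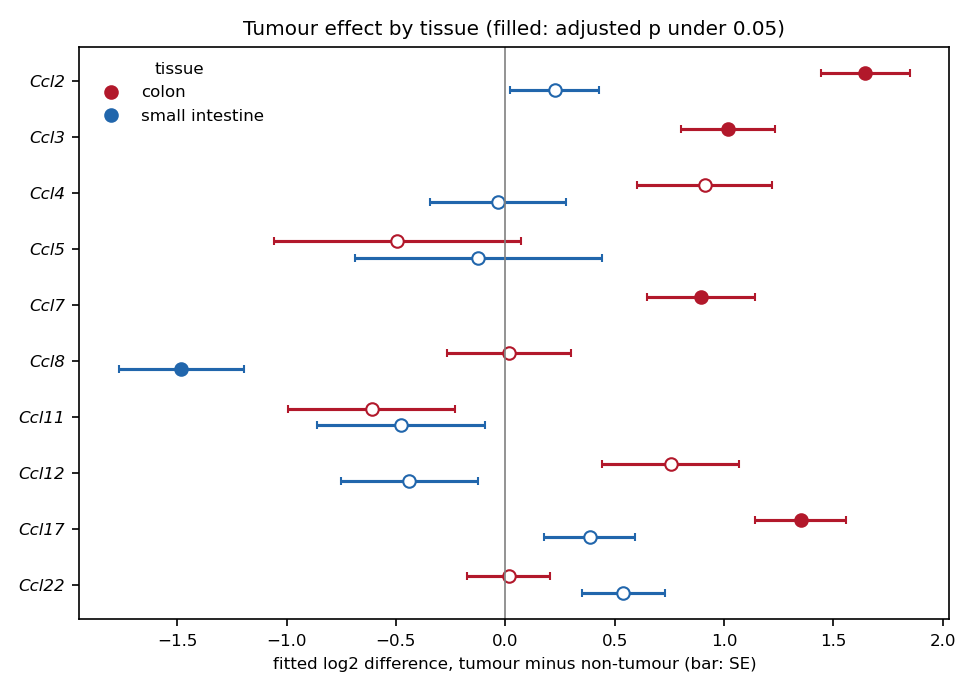
Fitted log2 difference of tumour minus tumour-free tissue for each chemokine in colon (red) and small intestine (blue), with bars of 1 SE and filled points for an adjusted p under 0.05. Points with both sides at the floor are left out. Colon points of Ccl2, Ccl17, Ccl3 and Ccl7 are filled right of 0, and the small-intestinal point of Ccl8 is filled at -1.48.

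In small-intestinal tumours Ccl8 was the 1 member called. It fell, where 1.2% of tested genes fell and 2.77% rose, and 0 members rose. The median difference of the members was -0.02 and that of all tested genes 0.04. Centring each array on its median turned the calls over all genes from 389 higher and 168 lower to 254 higher and 220 lower.

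Ccl8 had 249 in ACKR2-/-ApcMin/+ and 264 in ApcMin/+ small-intestinal tumours, against 1012 in ACKR2-/- and 507 in WT small intestine. Both tumour arrays were below both tumour-free arrays, by 4.06-fold and 1.92-fold. The fitted difference was -1.48 ± 0.28 (adjusted p = 0.0485). It stayed at -1.48 without any single colon array and was -0.96 without the ACKR2-/- and -2.01 without the WT small-intestinal array. Fits with an array left out called 0 of all tested genes in this comparison, so they give no check of the call.

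The CCR2 ligands were near the floor in small intestine. Ccl2 had 96.1 in ACKR2-/-ApcMin/+ and 57.7 in ApcMin/+ tumours, against 70.2 in ACKR2-/- and 42.6 in WT small intestine, a fitted difference of 0.23 ± 0.20 (adjusted p = 0.592). Ccl12 was above the floor on the ACKR2-/- array alone, at 118, against 58.7, 50.5 and 42.3 on the ACKR2-/-ApcMin/+, ApcMin/+ and WT arrays. Ccl7 had 40.8 and 1.12 in these tumours and 29.1 and 20.8 in ACKR2-/- and WT tissue, and Ccl3 had 57.9 and 15.1 against 10.8 and 5.78, all under the floor, so neither has a fold there.

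The remaining members did not pass. Ccl17 had 132 in ACKR2-/-ApcMin/+ and 79.5 in ApcMin/+ tumours, against 96.1 in ACKR2-/- and 30.8 in WT small intestine (0.39 ± 0.21, adjusted p = 0.364). Ccl22 had 92.3 and 121 in the tumours, against 69.8 and 76.0, higher in both pairs and without overlap (0.54 ± 0.19, adjusted p = 0.191). Ccl11 was under the floor in ACKR2-/-ApcMin/+ tumours at 31.9 and had 78.8 in ApcMin/+ tumours, against 113 in ACKR2-/- and 86.3 in WT tissue (-0.48 ± 0.38, adjusted p = 0.549). Ccl4, at 190 and 182 in the tumours against 233 and 155, showed overlapping groups (-0.03 ± 0.31, adjusted p = 0.987), as did Ccl5 (-0.12 ± 0.57, adjusted p = 0.947).

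By size, 0 members were at least 2-fold higher and 0 lower in both small-intestinal pairs, where 3.14% of tested genes were higher and 1.13% lower. In the pair without ACKR2 alone, 0 were higher and 1 (Ccl8) lower, against 5.96% and 3.37%, and in the pair with ACKR2, 0 and 0, against 6.05% and 3.94%. Of the listed inducers and NF-kappa-B genes, 0 of the 12 tested were called by limma, and 0 of the 7 other CC chemokines, among which Ccl20 was at least 2-fold higher in both pairs (1.77 ± 0.47, adjusted p = 0.109). Smooth muscle sums were 6934 in ACKR2-/-ApcMin/+ and 17449 in ApcMin/+ tumours, against 43713 in ACKR2-/- and 44412 in WT small intestine. By limma 5 of 8 markers were lower, where 1.2% of tested genes fell. Fibroblast marker sums were 5622 and 19296 in the tumours, against 14863 and 21870. All 5 B cell markers were called higher, where 2.77% of tested genes rose, with sums of 10951 and 6879 against 369 and 1385. The sum of 6 mast cell markers was 26487 and 13874 in the tumours, against 766 in ACKR2-/- and 867 in WT tissue. Of these 6, 5 were called higher by limma, where 2.77% of tested genes rose. Mcpt4 and Fcer1a were above the floor on tumour arrays alone and entered the test through them. The part of all these cell type markers in the lower Ccl8 was not tested.

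The difference between tissues was tested directly as the tumour effect in colon minus that in small intestine. It called 0 members by limma, although 6 had an unadjusted p under 0.05, where 0.735% of tested genes were called higher in colon and 1.52% lower. Ccl2 differed by 1.42 ± 0.29 (adjusted p = 0.0712) and Ccl8 by 1.5 ± 0.40 (adjusted p = 0.127). Calls over all genes were 103 higher and 213 lower, and 111 higher and 103 lower after median centring. Averaged over both tissues, Ccl2 (0.94 ± 0.14, adjusted p = 0.00867) and Ccl17 (0.87 ± 0.15, adjusted p = 0.0113) rose and Ccl8 fell by 0.73 ± 0.20 (adjusted p = 0.0445), where 13.1% of tested genes rose and 12% fell. With an array left out, Ccl2 ran from 0.83 to 1.04, Ccl17 from 0.81 to 0.93 and Ccl8 from -0.99 to -0.47, the last without the WT colon or the ACKR2-/- small-intestinal array, and 0 of all tested genes were called. Over all genes that average called 1844 higher and 1679 lower, and 1329 higher and 1883 lower after median centring.

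**Figure D3:**
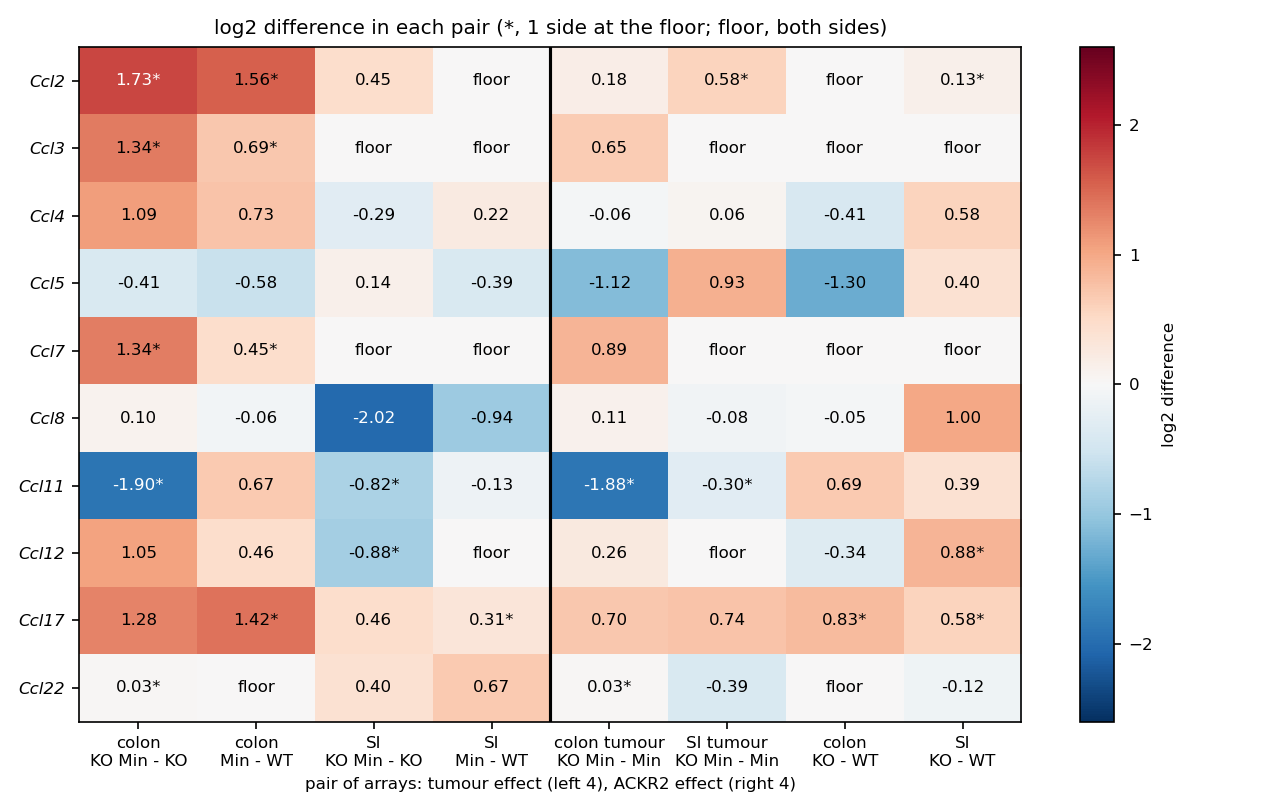
log2 difference of each chemokine in the 8 pairs of arrays, with tumour minus tumour-free pairs in the left 4 columns and ACKR2-deficient minus ACKR2-bearing pairs in the right 4. An asterisk marks a pair with 1 array at the floor and "floor" a pair with both there. Ccl17 is positive in all 8 pairs, Ccl2 stands out in the colon tumour pairs, and Ccl11 has its 2 most negative values in pairs with ACKR2-/-ApcMin/+ colon tumours.

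Loss of ACKR2 was compared within tumours and within tumour-free tissue, to ask whether the messenger RNA of its ligands differs where it is absent. In tumours, limma called 0 members, where 0% of tested genes were called higher and 0.0357% lower, and 2 members (Ccl17 and Ccl11) had an unadjusted p under 0.05. In tumour-free tissue it called 0 members, where 0.128% were called higher and 0.556% lower, and Ccl17 had an unadjusted p under 0.05. The median differences of the members were 0.07 in tumours and 0.07 in tumour-free tissue, beside -0.03 and -0.02 for all tested genes.

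Ccl17 was higher without ACKR2 in 4 of 4 pairs, from the signals given above. The differences were 1.62-fold in colon tumours, 1.67-fold in small-intestinal tumours, at least 1.78-fold in colon and at least 1.5-fold in small intestine. The fitted values were 0.72 ± 0.21 in tumours (adjusted p = 0.218) and 0.71 ± 0.21 in tumour-free tissue (adjusted p = 0.113), with 95% intervals of 0.21 to 1.23 and 0.20 to 1.21. With 1 ACKR2 effect for all arrays, the value was 0.71 ± 0.14 and passed (adjusted p = 0.0396), in a fit that called 806 of 14023 genes where the separate effects called 5 in tumours. Genotype moved here with the median signal, the Actb ratio and the sex markers given above, and their part was not tested.

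Ccl11 was lower without ACKR2 in both tumour pairs and higher in both tumour-free pairs, and neither effect passed. In tumours it was at least 3.68-fold lower in colon and at least 1.23-fold lower in small intestine (-1.09 ± 0.38, adjusted p = 0.272). In tumour-free tissue it was 1.61-fold and 1.31-fold higher (0.54 ± 0.38, adjusted p = 0.433). The ACKR2 effect in tumours minus that in tumour-free tissue was -1.63 ± 0.54 (adjusted p = 0.581), and this difference called 0 members by limma, where 0% of tested genes were called higher and 0.00713% lower. Ccl11 was the 1 member there with an unadjusted p under 0.05.

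Summed markers of stroma were lower without ACKR2 in both tumour pairs, as Ccl11 was. Smooth muscle sums in the ACKR2-/-ApcMin/+ tumours, 6683 in colon and 6934 in small intestine, were below the 25464 and 17449 of the ApcMin/+ tumours, with 1 of 8 markers called lower by limma and 8 of 8 at least 2-fold lower in both pairs. Fibroblast sums were 22527 and 5622 against 38600 and 19296, with 0 of 7 called by limma and 3 at least 2-fold lower in both pairs. Of all tested genes, 0.0357% were called lower and 1.35% were at least 2-fold lower in both pairs. In tumour-free tissue Ccl11 was higher without ACKR2 and these sums were not. Smooth muscle sums were 86123 in ACKR2-/- and 100170 in WT colon, and 43713 and 44412 in small intestine. Fibroblast sums there were 44968 and 53632 in colon, and 14863 and 21870 in small intestine. Eosinophils are the cells that Ccl11 attracts, and the summed signal of 4 eosinophil markers was 177 in colon and 479 in small intestine for ACKR2-/-ApcMin/+ tumours, against 181 and 222 for ApcMin/+ tumours. Of these markers 2 were tested and limma called 0 with ACKR2 loss, while Epx was under the floor on all 8 arrays. Siglecf had 336 of the 479 in ACKR2-/-ApcMin/+ against 70.9 of the 222 in ApcMin/+ small-intestinal tumours, where Ccl11 was lower. In that pair Prg2 and Epx went the other way, at 59.7 and 45.3 against 72.5 and 55.2. Il5ra had 37.6 against 23.1 there, under the floor, and 99.0 against 106 in colon tumours. In tumour-free small intestine Siglecf was higher without ACKR2 too, at 182 against 66.1, and Ccl11 was higher there. The part of stroma and of eosinophils in the Ccl11 values was not tested.

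Ccl5 (RANTES), a ligand of CCR1 and CCR3 made by T and NK cells, differed in opposite directions with ACKR2 loss in the 2 tissues. In colon it had 80.2 in ACKR2-/-ApcMin/+ against 174 in ApcMin/+ tumours and 106 in ACKR2-/- against 261 in WT tissue, which is 2.17-fold and 2.46-fold lower. In small intestine it had 4030 against 2119 in tumours and 3654 against 2771 in tumour-free tissue, which is 1.90-fold and 1.32-fold higher. The model takes this difference between tissues as its residual, so it could not be tested, and it gives Ccl5 a standard error of 0.57, the widest of the 10 members.

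Ccl8 was 2.0-fold higher in ACKR2-/- than in WT small intestine, and level in colon at 0.96-fold (fitted 0.47 ± 0.28, adjusted p = 0.362). For the CCR2 ligands in tumours the fitted differences were 0.38 ± 0.20 for Ccl2, 0.45 ± 0.24 for Ccl7 and 0.13 ± 0.31 for Ccl12. The 95% interval for Ccl2 ran from -0.11 to 0.87, which includes 0. Ccl3, at 0.33 ± 0.21, and Ccl4, at 0.00 ± 0.31, did not pass either.

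In single pairs, 2 members (Ccl5 and Ccl11) were at least 2-fold lower in ACKR2-/-ApcMin/+ than in ApcMin/+ colon tumours and 0 were higher, against 4.91% and 1.96% of tested genes. Between the small-intestinal tumours 0 members were lower and 0 higher, against 4.62% and 1.94%. Between ACKR2-/- and WT colon 1 (Ccl5) was lower and 0 higher, against 5.11% and 2.01%, and in small intestine 0 and 0, against 6.9% and 1.57%. In both tissues together, 0 members were 2-fold apart the same way, in tumours (1.35% of tested genes lower, 0.207% higher) or in tumour-free tissue (2.28% and 0.371%).

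The scale mattered in tumour-free tissue. Centring each array on its median moved the median ACKR2 difference of all tested genes from -0.02 to 0.44, and the calls from 18 higher and 78 lower to 3600 higher and 173 lower. On that scale Ccl17 (1.07 ± 0.23, adjusted p = 0.0209) and Ccl8 (1.02 ± 0.27, adjusted p = 0.0357) were called, beside the median gene at 0.44. Ccr2, the receptor of Ccl2, Ccl7 and Ccl12, was lower without ACKR2 in 4 of 4 pairs without passing (-1.24 ± 0.32 in tumours, adjusted p = 0.189, and -1.17 ± 0.32 in tumour-free tissue, adjusted p = 0.0963).

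Position along the gut separated Ccl5 from the other members. Ccl5 had 106 in ACKR2-/- and 261 in WT colon, against 3654 in ACKR2-/- and 2771 in WT small intestine. The groups lay far apart, with colon 34.4-fold and 10.6-fold lower. Its fitted difference was -4.26 ± 0.57 (adjusted p = 0.00503), and it was the 1 member called, where 8.4% of tested genes were lower in colon and 13% higher. With an array left out the difference ran from -5.10 to -3.41 and missed the threshold, in fits that called 0 to 796 of all tested genes. By size it was also the 1 member at least 2-fold lower in both pairs, with 0 higher, beside 4.94% and 7.08% of tested genes. Tumours showed this order too, with 80.2 and 174 in colon tumours against 4030 and 2119 in small-intestinal tumours.

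T and NK cell markers showed the same order. The sum of 11 markers was 499 in ACKR2-/- and 480 in WT colon, against 20816 in ACKR2-/- and 10427 in WT small intestine. By limma 8 of 9 tested were lower in colon, where 8.4% of all tested genes were. The granule protease Gzma had 41.3 and 33.3 in colon, against 13787 and 5868 in small intestine. Within small intestine, both Ccl5 and the marker sum were higher on the arrays without ACKR2. Within colon, Ccl5 was lower on these arrays, while the marker sum was 784 in ACKR2-/-ApcMin/+ and 928 in ApcMin/+ tumours and 499 in ACKR2-/- and 480 in WT tissue. The part of these cells in the Ccl5 values was not tested.

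**Figure D4:**
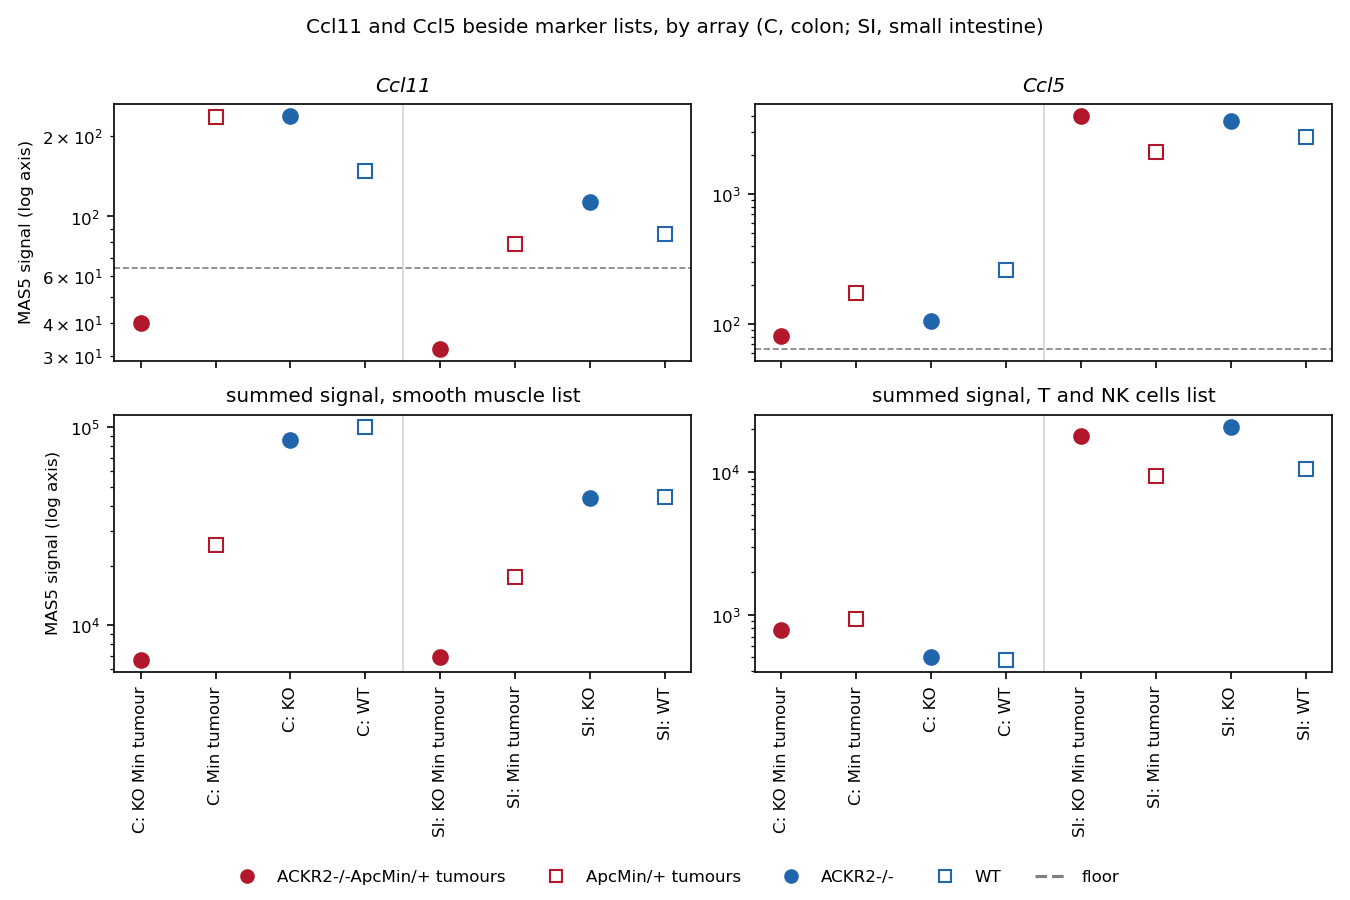
Signals of Ccl11 (left) and Ccl5 (right) above the summed signals of the smooth muscle and the T and NK cell lists, on log axes, for the 8 arrays, with the floor of 64.1 dashed. The ACKR2-/-ApcMin/+ tumours have the lowest Ccl11 signals, 39.7 and 31.9, and the lowest smooth muscle sums, while Ccl5 and the T and NK cell sum are both higher on all small-intestinal arrays than on any colon array. In ApcMin/+ colon tumours Ccl11 is above WT colon, at 236 against 148, while the smooth muscle sum is below it, at 25464 against 100170.

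Other members differed less between colon and small intestine. Ccl11 was higher in colon, at 239 in ACKR2-/- and 148 in WT colon against 113 and 86.3 in small intestine (0.93 ± 0.38, adjusted p = 0.142). Ccl4 was lower in colon, at 99.7 and 133 against 233 and 155 (-0.72 ± 0.31, adjusted p = 0.152). In the pair without ACKR2, 1 member (Ccl11) was at least 2-fold higher and 2 (Ccl4 and Ccl5) lower, against 12.9% and 7.41% of tested genes, and in the WT pair 0 and 1, against 9.64% and 6.57%. Ccl8 overlapped, and the CCR2 and CCR4 ligands were close to the floor in both tissues. Of the other CC chemokines, Ccl28 was higher in colon and Ccl25, Ccl6 and Ccl9 lower, with Ccl25 at -7.19 ± 0.19 (adjusted p = 2.53e-05).

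Profiles over the 8 arrays were compared for the 3 members above the floor on all of them. By the root mean square difference between centred log2 profiles, the genes nearest to Ccl5 were Hkdc1 (0.36), Abhd3 (0.41) and Cyp4b1 (0.44). Those nearest to Ccl8 were Ceacam10 (0.30), Pdzrn3 (0.38) and Pcdh7 (0.39), and those nearest to Ccl4 were Pask (0.12), Fdft1 (0.13) and Isy1 (0.15). Among the members themselves, Ccl3 and Ccl7 were the closest pair at 0.08, with 6 of 8 arrays at the floor for both, followed by Ccl2 and Ccl17 at 0.30. With 1 array per group, these are descriptions of 8 pools.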

How the data were processed

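RNA from colon and small intestine of 8 groups was extracted with Trizol and RNeasy columns, pooled per genotype and biotin-labelled by the 3' IVT Express protocol, per the labels' protocols. The deposited values are linear intensity values made by the authors with MAS5 and Partek, per the submitters' processing notes, with no versions given. A mean trimmed by 2% on either side came to 500.003 on each array, tested on the file.

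Of 45101 probe sets, 64 were controls, 34945 had 1 gene in the platform annotation, 932 several and 9160 none, and 34741 were matched by gene identifier with 0 symbols updated. Values under 64.1, the median over arrays of the 40th percentile, were set to that floor. The probe set with the highest mean was used per gene, and 14023 of 18193 genes above the floor in at least 2 arrays were tested. This filter and the floor understate changes of low genes such as Ccl3 and Ccl7.

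The fit used limma 3.58.1 in R 4.3.3 with 6 coefficients (a mean for each tissue with and without tumour, and 1 ACKR2 effect in tumours and 1 in tumour-free tissue, each shared by both tissues), 2 residual and a median of 4.16 prior degrees of freedom, and a median SD of 0.22. Calls are two-sided at a Benjamini-Hochberg adjusted p under 0.05 over all tested genes. A second rule counted genes at least 2-fold apart the same way in every pair. All members were named, and from other lists up to 4 genes per comparison that were called or past 2-fold, with counts and sums. For the 3 members above the floor throughout with a log2 range of at least 1, the 3 nearest profiles were named. Ackr2, Xist and Eif2s3y were named as checks, and a few other listed genes were named after their values were seen. The members and lists were chosen with earlier results of these data known.

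Tested on simulated data for 14023 genes, the fit recovered 52% of 50 genes changed by 1 and 96% changed by 2 (log2) for the tumour effect in colon, and 62% and 98% for the ACKR2 effect in tumours. These shares hold for the spread of the simulated data and do not give the power of the fit on these arrays. There, Ccl11 at -1.09 ± 0.38 for the ACKR2 effect in tumours was not called by limma (adjusted p = 0.272). Alternatives were floors at percentile 25 and at percentile 60, testing without the filter, quantile normalization, median centring, the mean of probe sets, an additive ACKR2 effect, no trend, 1.5-fold, leaving out each array and, chosen after seeing the data, leaving out both WT or both ACKR2-/-ApcMin/+ arrays. Some listed genes, among them Ccl19, Ccl21a, Nfkb1, Ly6c2, Clec9a and Ear2, were not analysed here.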

Additional observations from a re-analysis of the deposited data

Results flagged for a closer look

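The mean differences of Ccl4 with ACKR2 loss had opposite signs in the 2 tissues, which rests on the tumour-free pairs. Without ACKR2 it was lower in tumour-free colon (log2 difference of -0.41) and higher in tumour-free small intestine (0.58). The tumour pairs were nearly level, at -0.06 in colon and 0.06 in small intestine. The mean ACKR2 difference in colon minus that in small intestine was -0.56, and this difference was not tested.

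Ccl5 differed in opposite directions with ACKR2 loss in the 2 tissues, by -1.12 and -1.30 in the colon pairs and 0.93 and 0.40 in the small-intestinal pairs. The mean ACKR2 difference in colon minus that in small intestine was -1.87. It was not tested either, because the fit uses this very difference in its measure of spread.

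Ccl11 was lower without ACKR2 in both tumour pairs (-1.88 and -0.30, each with the ACKR2-/-ApcMin/+ array at the floor) and higher in both tumour-free pairs (0.69 and 0.39). The difference between these effects was -1.63 and did not pass limma's test (adjusted p = 0.581).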

How the results depend on the processing

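No called value of a member turned its sign under any alternative run. No paired analysis was possible because each group is 1 array and the labels give no replicate numbers. Of the members higher in colon tumours by limma (4), 0 were called with the floor at the 60th percentile, where Ccl2, Ccl3, Ccl7 and Ccl17 leave the test, 0 with no filter, and 0 to 2 with an array left out. The same 2 settings took the 2 members higher over both tissues to 0, and the 25th percentile floor to 4. The single lower call in small intestine (Ccl8), and the lower call over both tissues, went to 0 with the 60th percentile floor, no filter, the mean of probe sets or no trend. The lower call of Ccl5 in colon against small intestine went to 0 with no filter. With any array left out each of these counts was 0, in fits that called 0 of all tested genes for the tumour effects in small intestine and over both tissues and 0 to 796 for colon against small intestine. ACKR2 effects gained 1 higher member in tumours and 1 in tumour-free tissue with an additive effect (Ccl17, among 806 genes called), and 2 in tumour-free tissue with median centring.

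By size in both colon tumour pairs, the 2 higher members became 4 with the 25th percentile floor, 0 with the 60th, 4 at 1.5-fold, 6 without both WT arrays, and 2 to 6 with an array left out, and the 0 lower became 1 without both WT arrays and 0 to 1 with an array left out. In small-intestinal tumours the 0 lower became 1 with quantile normalization, median centring, 1.5-fold or without both WT arrays, and 0 to 1 with an array left out. For ACKR2 loss in tumours, 1 was higher at 1.5-fold, 1 lower with the 25th percentile floor, and 0 to 2 lower with an array left out, and in tumour-free tissue 0 to 1 lower. In colon against small intestine, 1 was higher at 1.5-fold and without both WT arrays (0 to 1 with an array left out), and the 1 lower became 2 without both WT arrays (1 to 2). Leaving out both ACKR2-/-ApcMin/+ arrays changed none of the counts that could be computed. Over its settings, adjusted p ran from 0.00344 to 0.230 for Ccl2, 0.00538 to 0.229 for Ccl17, 0.00609 to 0.279 for Ccl3 and 0.0125 to 0.352 for Ccl7 in colon tumours, from 0.0300 to 0.542 for Ccl8 in small-intestinal tumours, and from 0.00174 to 0.289 for Ccl5 between the tissues. The cause of these changes was not tested beyond the members that leave the test and the 1 residual degree of freedom left without an array. Signals close to the floor limit what can be said of Ccl2, Ccl7, Ccl12 and Ccl22.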
